A study of Drosophila melanogaster with 7 samples.

Results

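Condensins are ring-shaped complexes that compact chromosomes, and the genes examined here are those of the Drosophila melanogaster condensin I and condensin II subunits together with slmb. The 8 genes were taken by symbol from a table of 13771 genes: SMC2, glu, barr, Cap-G, Cap-D2, Cap-D3, Cap-H2 and slmb. They have 16 transcripts among the 29939 of the transcript table. The RNA came from ovarian cells positive for the bamP-GFP reporter, a fluorescent protein under the promoter of the germline differentiation gene bam, and isolated alive by flow cytometry. Both groups carried the reporter and the germline driver nos-GAL4::VP16. They differed in the hairpin RNA it expressed, against Atx2 in 4 libraries (Atx2 KD) or against the fluorescent protein mCherry in 3 (Control KD). A knockdown through a germline driver does not by itself lower Atx2 in somatic cells that enter the sort, and the labels give no age of the flies and no number of flies or ovaries per library. The labels number the replicates but do not say whether they came from separate crosses or dissections, so the p-values measure the spread between these libraries.

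As background, each condensin has a pair of SMC ATPases, SMC2 and SMC4 (named gluon, glu, in flies), closed into a ring by a kleisin subunit that also holds the HEAT-repeat subunits. Condensin I has the kleisin Barren (barr) with Cap-G and Cap-D2, and it is known for compacting and separating mitotic chromosomes. Condensin II has the kleisin Cap-H2 with Cap-D3. In flies, Cap-H2 and Cap-D3 act against the pairing of homologous chromosomes and are needed for polytene chromosomes of ovarian nurse cells to come apart. The product of slmb, an F-box protein of an SCF ubiquitin ligase, marks Cap-H2 protein for destruction and so favours pairing. That step acts on protein, whereas the values here are of RNA.

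Expression is given in CPM, a gene's estimated counts scaled to library size with TMM factors, or in TPM, which also divides by transcript length and so allows levels of different genes to be compared. Library totals ranged from 65262402 to 101809997 estimated counts, and each of the 8 genes had at least 3216 estimated counts in every library. Atx2 was at 245, 211, 269 and 209 CPM in replicates 1 to 4 of Atx2 KD and at 391, 445 and 424 CPM in the control replicates, a log2 fold change of -0.85 ± 0.10 (SE; edgeR adjusted p 0.00166). On the second principal component, control replicate 3 lay away from the remaining libraries. The labels call the cells germ cells, and all 7 germline markers analysed were detected, with a summed level of 1668 to 2274 CPM in Atx2 KD and 2285 to 3304 CPM in Control KD. The mean log2 CPM of these markers overlapped between the groups, at 7.13 to 7.52 in Atx2 KD and 7.34 to 7.59 in Control KD. The 7 markers of early somatic ovary cells summed to 1256 to 1515 CPM against 999 to 1348 CPM, and among them en lay between 0.0310 and 0.424 CPM. The 10 eggshell and yolk genes were taken as markers of late follicle cells. They summed to 3268 to 18936 CPM in Atx2 KD against 18088 to 36391 CPM in Control KD. Somatic RNA was present in every library. In such bulk samples, fewer cells of a type and less RNA per cell cannot be told apart.

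Among the 8 genes, the condensin II kleisin Cap-H2 was the single one to pass the test, and it was lower in Atx2 KD. The share of all 10514 tested genes called at an edgeR adjusted p under 0.05 was 13.3%, with 5.61% higher and 7.67% lower, so 1 of 8 genes (12.5%) is near the background. With the replicate number as a block, glu passed as well and was higher, which made 2 of 8 against a background of 28.0%, with 13.8% higher and 14.2% lower. The median log2 fold change of the 8 genes was 0.04, beside 0.01 over all tested genes. Cap-H2 and glu, 2 of the 8 genes (25.0%), had CPM values without overlap between groups, beside 27.4% of all tested genes. All 8 genes passed the filter on low counts.

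**Figure D1:**
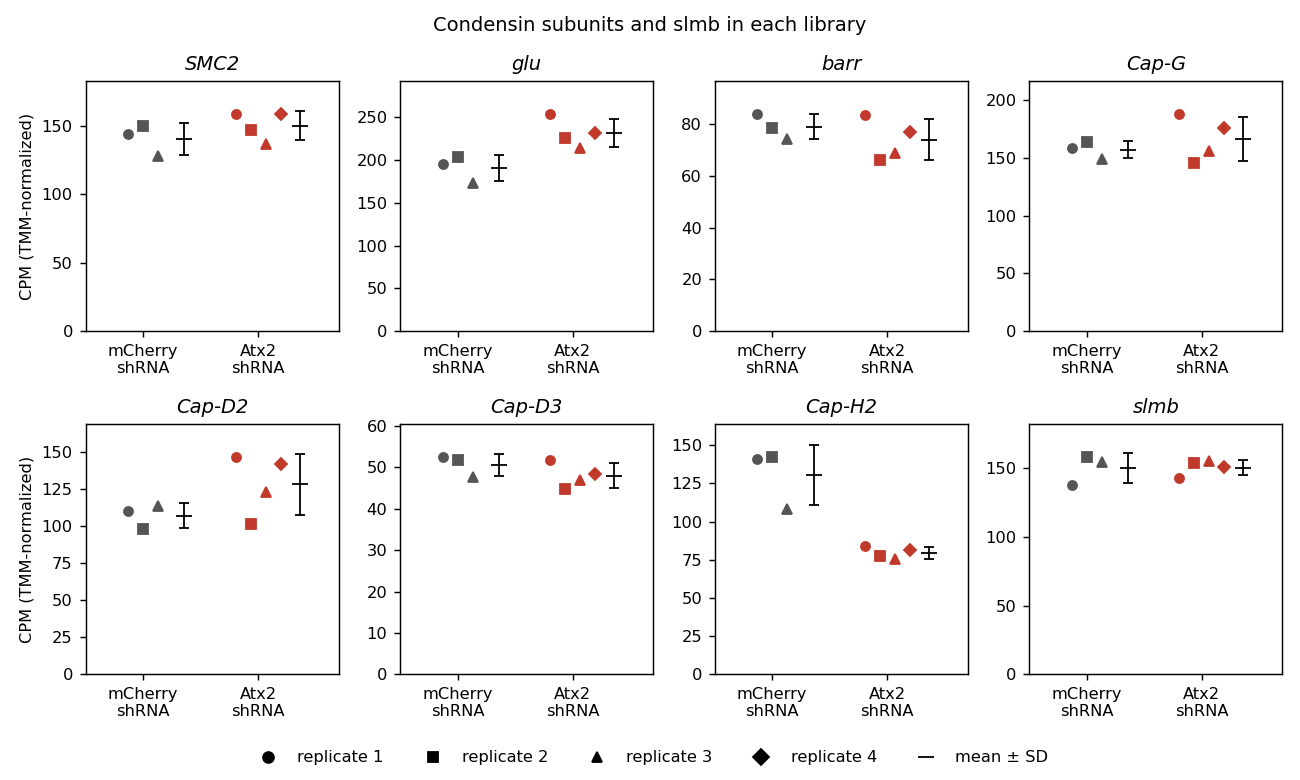
CPM (TMM-normalized, y axes from 0) of the 8 genes in each library, grey for the mCherry shRNA (n = 3) and red for the Atx2 shRNA (n = 4), with marker shapes for the replicate number and mean ± SD beside them. All 4 Atx2 KD libraries lie below the controls for Cap-H2 and above them for glu, and the groups overlap for the other 6 genes.

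The shared SMC subunits come first. SMC2 (FBgn0027783, arm 2R, 14848621 to 14852653, minus strand) had 159, 147, 137 and 159 CPM in Atx2 KD replicates 1 to 4, and 144, 150.4 and 128 CPM in Control KD replicates 1 to 3. The groups overlapped, with a difference of 0.10 ± 0.09 in log2 fold change (SE; edgeR adjusted p 0.485). glu (FBgn0015391, arm 2L, 16733617 to 16738388, minus strand), which encodes the SMC4 partner, was at 254, 226, 214 and 232 CPM in Atx2 KD and at 195, 204 and 173 CPM in Control KD. Every Atx2 KD library lay above every control, but the change did not pass over all genes, at 0.28 ± 0.08 (SE; adjusted p 0.0601). The replicate block gave 0.28 ± 0.07 (SE; edgeR adjusted p 0.0161), DESeq2 gave 0.29 (adjusted p 0.0162) and upper-quartile scaling gave 0.34 (edgeR adjusted p 0.0337), so whether glu passed depended on the fit. With the mean of the eggshell and yolk genes as a covariate, which was lower in every Atx2 KD library, the change of glu was 0.13 (edgeR adjusted p 0.5995). Exons of glu overlap those of the opposite-strand gene Nubp1 by 8 bases. Nubp1 itself rose by 0.47 ± 0.11 (SE; edgeR adjusted p 0.0254).

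None of the 3 subunits of condensin I passed, in edgeR or in DESeq2, and 0 of them had an unadjusted p under 0.05. barr (FBgn0014127, arm 2L, 20058163 to 20061370, minus strand), the kleisin, was at 83.6, 66.0, 69.0 and 76.8 CPM in Atx2 KD and at 84.0, 78.6 and 74.3 CPM in Control KD. The groups overlapped for barr, at a log2 fold change of -0.10 ± 0.10 (SE; edgeR adjusted p 0.540) with a 95% interval from -0.32 to 0.12. Cap-G (FBgn0259876, arm 2R, 13133142 to 13142820, plus strand), a HEAT-repeat subunit, was at 188, 146, 156 and 176 CPM against 159, 164 and 149.5 CPM, with a log2 fold change of 0.08 ± 0.10 (SE; adjusted p 0.599). Cap-D2 (FBgn0039680, arm 3R, 29675651 to 29680257, plus strand), the other HEAT-repeat subunit, was at 147, 101, 123 and 142 CPM against 110.3, 98.0 and 114 CPM. The value of Cap-D2 was 0.26 ± 0.13 (SE; edgeR adjusted p 0.208). Without replicate 2 of Atx2 KD it was 0.36 (adjusted p 0.0495), the one fit in which Cap-D2 passed. Exons of Cap-D2 overlap those of the opposite-strand gene CG7582 by 17 bases. CG7582 was at 0.72 ± 0.25 (SE; edgeR adjusted p 0.0894), and passed with the replicate block (0.85, edgeR adjusted p 0.0119).

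The condensin I genes varied together among the Atx2 KD libraries, and Cap-D3 of condensin II varied with them. In CPM, replicate 1 was highest and replicate 2 lowest for barr, Cap-G, Cap-D2 and Cap-D3 alike. Replicate 1 was also highest for glu and Cap-H2. In the same libraries the mean log2 CPM of the eggshell and yolk genes was lowest in replicate 1, at 7.10, and highest in replicate 2, at 9.52. It was 8.53 in replicate 3 and 8.14 in replicate 4, and from 9.72 to 10.7 in the controls. With that mean as a covariate the log2 fold changes were -0.16 for Cap-D2, -0.20 for Cap-G and -0.03 for SMC2, each opposite in sign to the fit without it and none past the threshold. In that fit barr was at -0.40 ± 0.10 (SE; edgeR adjusted p 0.0697), beside -0.10 without the covariate, and Cap-D3 of condensin II at -0.26 ± 0.10 (SE; 0.185), beside -0.08. Since that mean was lower in every Atx2 KD library than in any control, the fit cannot separate it from the group. The part of follicle cell RNA in these values was not tested.

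The condensin II subunits differed from each other. Cap-H2 (FBgn0037831, arm 3R, 10761310 to 10766756, plus strand) had 83.8, 77.4, 75.5 and 81.1 CPM in Atx2 KD replicates 1 to 4, and 141, 142 and 108 CPM in Control KD replicates 1 to 3. The Atx2 KD libraries lay close together and all below the lowest control, which was replicate 3. On average Cap-H2 had 79.4 ± 3.72 CPM in Atx2 KD (SD, n = 4) and 130.5 ± 19.3 CPM in Control KD (SD, n = 3). Cap-H2 fell by 0.72 ± 0.10 on the log2 scale (SE; edgeR adjusted p 0.00352), with a 95% interval of the log2 fold change from -0.95 to -0.48, which leaves 60.9% of the control level. With the replicate block the log2 fold change was -0.72 ± 0.09 (SE; adjusted p 0.000604). Cap-H2 ranked 190 of 10514 genes by p, and 557 genes had a more negative log2 fold change.

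Cap-D3 (FBgn0051989, arm 2L, 5525905 to 5535958, plus strand), the HEAT-repeat subunit that joins Cap-H2, was at 51.9, 44.7, 46.9 and 48.3 CPM in Atx2 KD. It was at 52.5, 51.8 and 47.6 CPM in Control KD. The groups overlapped, with a log2 fold change of -0.08 ± 0.08 (SE; edgeR adjusted p 0.535) and a 95% interval from -0.25 to 0.10. Exons of Cap-D3 overlap opposite-strand genes by 822 of 4049 bases, 724 of them in asRNA:CR44793 and 98 in tomb. Exons of Cap-H2 do so by 468 of 4087 bases, 333 in asRNA:CR45016 and 135 in TfIIFbeta. TfIIFbeta changed by -0.20 ± 0.10 (SE; edgeR adjusted p 0.196), and the antisense RNAs were not analysed here. The libraries keep strand, per the labels' protocols, but whether strand was used in assigning reads is not given in the sources used here.

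The level of slmb hardly differed between the groups. slmb (FBgn0283468, arm 3R, 21119252 to 21127485, minus strand) was at 142, 153, 155 and 151 CPM in Atx2 KD and at 138, 158 and 154 CPM in Control KD. On average slmb had 150.3 ± 5.49 CPM in Atx2 KD (SD, n = 4) and 150.0 ± 10.8 CPM in Control KD (SD, n = 3). The fitted change was 0.00 ± 0.07 in log2 (SE; edgeR adjusted p 0.986). Its 95% interval from -0.16 to 0.17 corresponds to 89.5% to 112% of the control level in the bulk RNA.

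Same-numbered libraries of the groups deviated together for numbers 2 and 3, with r of 0.336 and 0.519 over genes. For number 1 the r of 0.146 lay within the range of differently numbered libraries, -0.383 to 0.157. Heat shock gene levels also split the libraries by number. The mean log2 CPM of 8 heat shock genes lay between 8.62 and 9.04 in replicates 1 and 2 of both groups and between 9.73 and 9.81 in replicates 3 and 4. Among the libraries numbered 1 and 2, mean log2 CPM of Cap-H2 differed by -0.81 between the groups, and among those numbered 3 and 4 by -0.47. Within the same-numbered pairs 1, 2 and 3 the difference of Cap-H2 was -0.75, -0.88 and -0.52. For glu the differences were 0.27 and 0.36 on the 2 sides. Fitted in edgeR on numbers 1 and 2 alone, the data gave Cap-H2 an adjusted p of 0.0135 and glu one of 0.258. The side numbered 3 and 4 holds 1 control library, so it gives a value and no test.

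**Figure D2:**
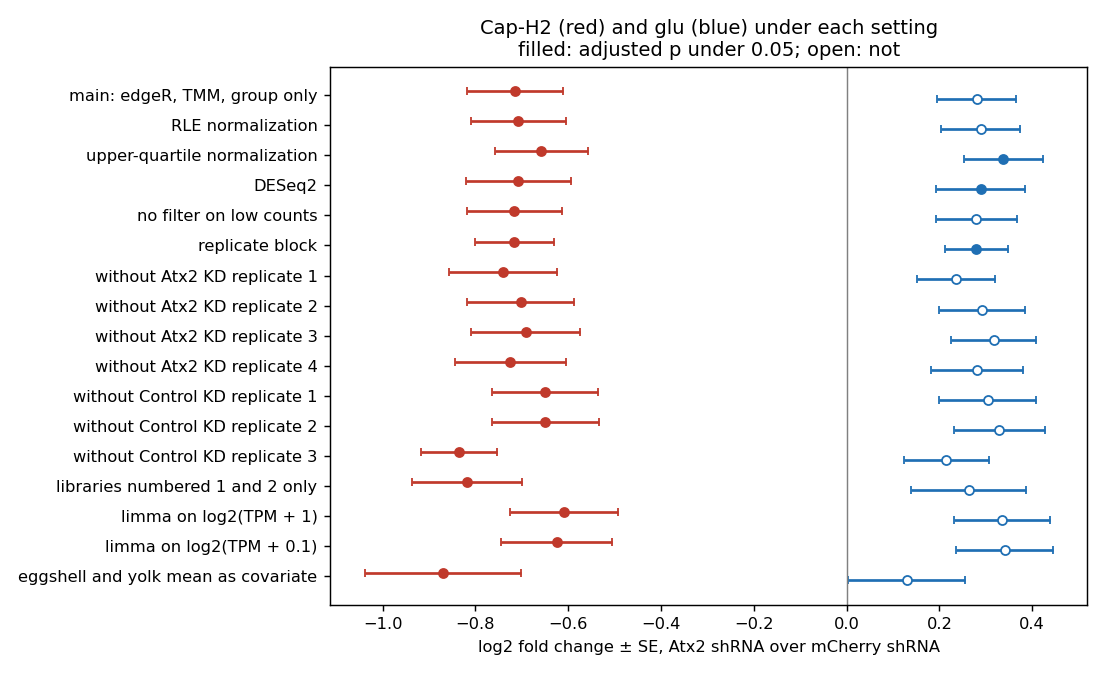
Log2 fold change ± SE (x axis, Atx2 shRNA over mCherry shRNA) of Cap-H2 in red and glu in blue under the reported fit, at the top, and 16 alternatives. Filled points passed an adjusted p of 0.05: Cap-H2 did in each of them, from -0.87 to -0.61, and glu in 3 of them.

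Compared per length, Cap-H2 changed its place among the subunits. In Control KD, mean TPM was 63.8 ± 2.36 for slmb, 53.3 ± 4.06 for glu, 48.9 ± 3.58 for SMC2, 45.3 ± 2.42 for Cap-G, 43.3 ± 6.33 for Cap-H2, 40.2 ± 4.04 for barr, 31.6 ± 4.00 for Cap-D2 and 16.0 ± 1.22 for Cap-D3 (SD, n = 3). From glu down to barr each gene's range overlapped that of the next in this order, while SMC2, with a lowest value of 45.2 TPM, lay above barr, with a highest of 44.8 TPM. Cap-D2 and Cap-D3 lay below all of them. In Atx2 KD, mean TPM was 67.8 ± 8.13 for glu, 66.1 ± 2.73 for slmb, 54.9 ± 6.22 for SMC2, 50.02 ± 8.62 for Cap-G, 39.3 ± 8.52 for Cap-D2, 39.2 ± 6.45 for barr, 27.9 ± 2.62 for Cap-H2 and 15.9 ± 1.895 for Cap-D3 (SD, n = 4). Cap-H2 ranged from 25.3 to 31.1 TPM there, below the lowest value of barr, 32.0 TPM, and overlapping Cap-D2. By rank of TPM among the 8 genes within a library, Cap-H2 was at place 4, 4 and 6 in the controls and at place 7 in all 4 Atx2 KD libraries. Cap-D3 was the lowest of the 8 in all 7 libraries.

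The balance of the kleisins was compared directly as the ratio of Cap-H2 to barr in TPM. The ratio was 0.665, 0.791, 0.727 and 0.694 in replicates 1 to 4 of Atx2 KD and 1.09, 1.195 and 0.952 in replicates 1 to 3 of Control KD. All Atx2 KD values lay below the controls, and the mean log2 ratio differed by -0.58 (two-sided exact permutation p 0.0286, the smallest that 35 splits allow, and 0.0429 adjusted over 3 ratios). As a share, Cap-H2 made up 41.8 ± 1.82% (SD, n = 4) of the summed TPM of Cap-H2 and barr in Atx2 KD and 51.8 ± 2.85% (SD, n = 3) in Control KD. The ratio of slmb to Cap-H2 was 2.13, 2.46, 2.60 and 2.34 against 1.26, 1.42 and 1.82, a difference of 0.68 in mean log2 ratio (exact permutation p 0.0286, adjusted 0.0429). These comparisons share Cap-H2, and the slmb ratio moved through Cap-H2, since slmb itself was level. For the HEAT-repeat subunits, Cap-D3 to Cap-D2, the ratio was 0.383, 0.482, 0.413 and 0.370 against 0.512, 0.573 and 0.451. Replicate 2 of Atx2 KD overlapped the controls, and the difference of -0.31 did not pass (exact permutation p 0.0857, adjusted 0.0857).

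**Figure D3:**
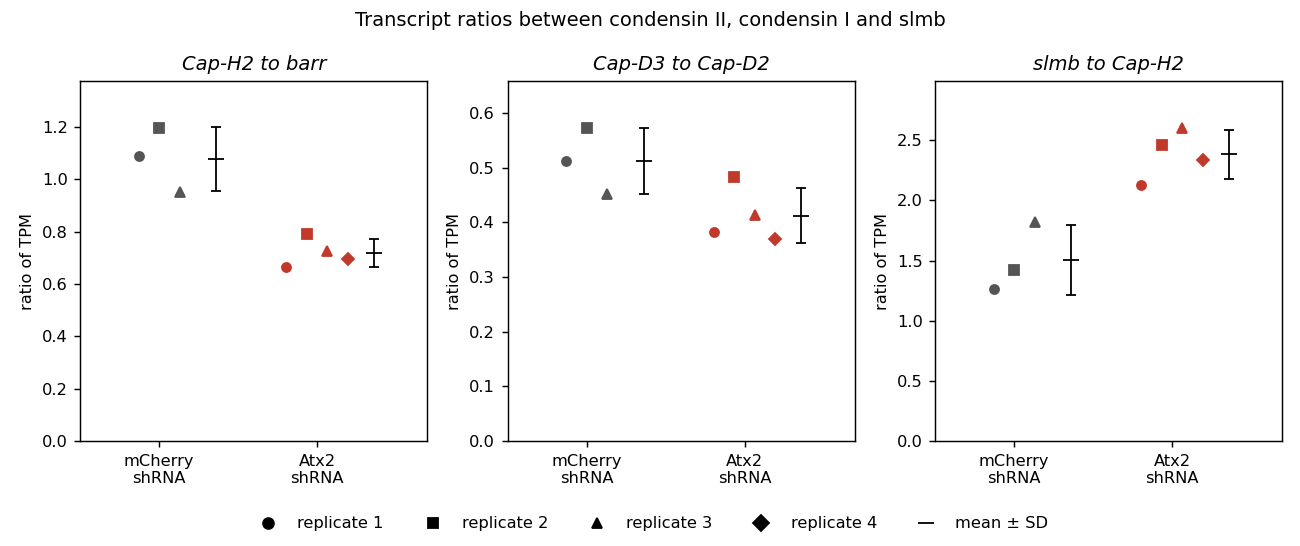
Ratio of TPM values (y axes from 0) for 3 pairs of genes in each library, grey for the mCherry shRNA (n = 3) and red for the Atx2 shRNA (n = 4), with mean ± SD. Cap-H2 to barr is lower and slmb to Cap-H2 higher in every Atx2 KD library than in any control, while Cap-D3 to Cap-D2 overlaps.

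Relative to the other subunits that share a ring with it, Cap-H2 was also lower, given here as values with no test. The ratio of Cap-H2 to SMC2 ranged from 0.488 to 0.531 in Atx2 KD, with 0.932, 0.910 and 0.805 in the controls. Against Cap-D3, its condensin II partner, the ratio averaged 1.76 ± 0.0667 (SD, n = 4) in Atx2 KD and 2.69 ± 0.269 (SD, n = 3) in Control KD. The ratio of barr to SMC2 overlapped between the groups, at 0.711 ± 0.0502 (SD, n = 4) and 0.821 ± 0.0516 (SD, n = 3). The glu to SMC2 ratio was at 1.23 ± 0.0482 in Atx2 KD (SD, n = 4) and 1.09 ± 0.00309 in Control KD (SD, n = 3). Every Atx2 KD library lay above the controls, and an SD from 3 libraries is itself imprecise.

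At the transcript level, all 16 transcripts of the 8 genes entered the test, and 2 were called at an edgeR adjusted p under 0.05, both lower and both of Cap-H2. The share of all 21728 tested transcripts called was 4.71%, with 2.05% higher and 2.66% lower. FBtr0302571 of Cap-H2, its most abundant transcript, was at 22.2, 16.2, 17.6 and 20.4 TPM in Atx2 KD and at 34.1, 30.3 and 24.0 TPM in Control KD. It fell by 0.70 ± 0.13 on the log2 scale (SE; edgeR adjusted p 0.0343). FBtr0301310 was at 6.49, 6.11, 7.46 and 6.496 TPM against 9.76, 10.7 and 9.90 TPM, a change of -0.68 ± 0.11 (SE; adjusted p 0.0210). In TPM the groups did not overlap for either transcript, nor for FBtr0080935 of glu, which was higher in Atx2 KD. How many of all transcripts lacked overlap, in TPM or in share of the gene, was not computed. For genes in CPM it was 27.4%. Both calls were lost with the replicate block, at -0.72 (edgeR adjusted p 0.0558) for FBtr0302571 and -0.66 (0.0641) for FBtr0301310. They were also lost without single libraries. FBtr0302571 did not pass without any 1 of the 4 Atx2 KD replicates or without control replicate 1 or 2, with adjusted p from 0.0600 to 0.123, and FBtr0301310 without Atx2 KD replicate 4 or control replicate 1 or 2, from 0.0565 to 0.0742.

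These transcripts encode nearly the same protein. Per the annotation, the coding region of FBtr0301310 has 2880 bases, that of FBtr0302571 has 2877 and that of FBtr0301311 has 2841, with the same start site and the same 3′ UTR of 859 bases, so reads tell them apart over few bases. FBtr0301311 was at 0.585, 1.77, 0.00231 and 0.663 TPM in Atx2 KD and at 2.76, 2.68 and 1.57 TPM in the controls, and did not pass (-1.66 ± 1.10, SE; edgeR adjusted p 0.432). The fourth, FBtr0082273, starts 462 bases downstream, has 3 short last exons where the others have 1 long one, and has a shorter coding region of 2097 bases. FBtr0082273 was at 1.43 ± 0.287 TPM (SD, n = 4) against 1.39 ± 0.677 TPM (SD, n = 3), with a log2 fold change of -0.04 ± 0.33 (SE; edgeR adjusted p 0.967). Its share of the gene's TPM was 5.09 ± 0.587% (SD, n = 4) in Atx2 KD and 3.13 ± 1.13% (SD, n = 3) in Control KD, with every Atx2 KD library above the controls. Unequal change among the 4 transcripts of Cap-H2 did not pass in diffSpliceDGE (Simes p 0.726, adjusted 1.00), a test that called 3.96% of 5103 genes.

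**Figure D4:**
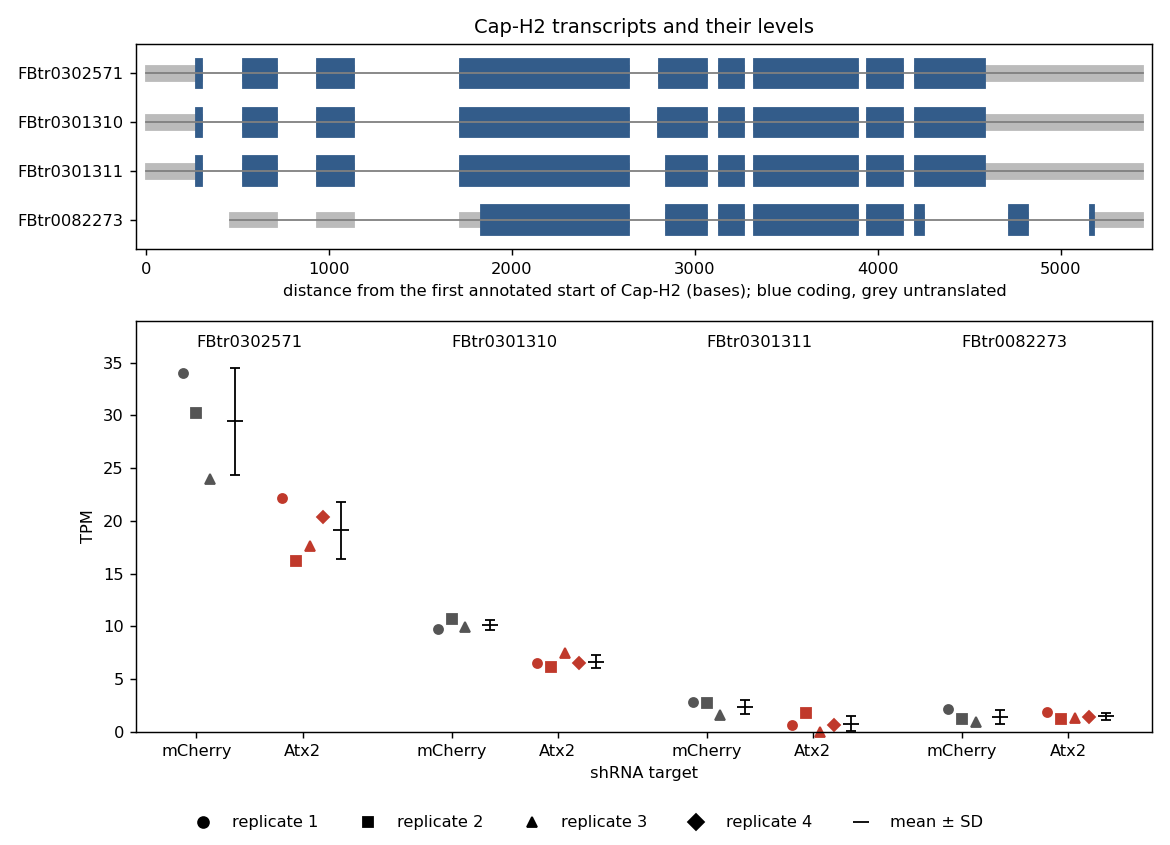
Top, the 4 annotated Cap-H2 transcripts to scale by distance in bases from the first annotated start, coding in blue and untranslated in grey. Bottom, their TPM in each library (linear axis from 0) with mean ± SD, grey for the mCherry shRNA (n = 3) and red for the Atx2 shRNA (n = 4); FBtr0302571 and FBtr0301310 are lower in all 4 Atx2 KD libraries and FBtr0082273 overlaps.

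Transcripts of the other genes showed no called change in the reported fit, while FBtr0080935 of glu passed in DESeq2 (0.285, adjusted p 0.0179). The test of unequal change was possible for 5 of the 8 genes and called 0 of them, also with the replicate block and with limma on transcript shares, and their unadjusted Simes p in diffSpliceDGE were from 0.521 to 0.985. For slmb the transcripts differ in the 3′ UTR, of 1468 bases in FBtr0084032 and 525 bases in FBtr0333931, with the same coding length of 1530 bases. The short form made up 37.5 ± 2.29% of slmb TPM in Atx2 KD (SD, n = 4) and 40.8 ± 1.55% in Control KD (SD, n = 3), and the groups overlapped. For barr, FBtr0081349, with a 5′ UTR of 254 bases where FBtr0081348 has 150, made up 24.1 ± 3.12% (SD, n = 4) against 27.8 ± 0.406% (SD, n = 3). All 4 Atx2 KD shares of FBtr0081349 lay below the controls, and its log2 fold change of -0.30 ± 0.13 (SE) did not pass (edgeR adjusted p 0.218). The shares of the Cap-D3 transcripts, which differ by 89 bases of 3′ UTR, varied most, with FBtr0301318 between 16.5% and 52.9% of Cap-D3 TPM across the 7 libraries and the groups overlapping. FBtr0079097, with the longer 3′ UTR, was at 10.04 ± 2.59 TPM in Atx2 KD (SD, n = 4) and 11.5 ± 1.77 TPM in Control KD (SD, n = 3). SMC2, glu and Cap-D2 each have 1 listed transcript, FBtr0087461, FBtr0080935 and FBtr0085452, whose values are those of the gene. For Cap-G, FBtr0299507 made up at least 98.5% of the gene's TPM in every library, and FBtr0301325, with a shorter coding region, reached at most 0.874 TPM. The third barr transcript, FBtr0343850, with the longest 5′ UTR of the 3, reached at most 0.601 TPM and had no reads in control replicate 3.

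The SCF ligase that contains Slmb was followed through 6 partner genes, all tested. Of these 1 was higher, 0 were lower and 5 did not pass, beside 5.61% higher and 7.67% lower over all tested genes. Their median log2 fold change was 0.19 beside 0.01 over all genes. Roc1a, a RING subunit of the ligase, was at 111 ± 9.81 CPM (SD, n = 4) against 89.98 ± 3.16 CPM (SD, n = 3), a rise of 0.30 ± 0.08 (SE; edgeR adjusted p 0.0465). That call was lost without any 1 of the libraries other than Atx2 KD replicate 1, with adjusted p from 0.0658 to 0.143. The scaffold gene Cul1 was at -0.19 (adjusted p 0.106) and the adaptor gene SkpA at -0.03 (0.828). With the replicate block 2 of the 6, Roc1a and Nedd8, were higher and 1, Cul1, was lower, beside 13.8% and 14.2% of all genes. Of 5 other F-box genes, which encode alternative substrate receptors, 1 was lower and 4 did not pass, beside 7.67% of all tested genes lower. Their median was -0.16. The one that fell was Skp2, at 92.5 ± 4.69 CPM (SD, n = 4) against 140.4 ± 6.53 CPM (SD, n = 3), a log2 fold change of -0.60 ± 0.07 (SE; edgeR adjusted p 0.00156).

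Of 5 known Slmb substrates other than Cap-H2, 2 were higher and 3 did not pass, beside 5.61% of all tested genes higher. Their median log2 fold change was 0.09. With the replicate block cact was lower as well (-0.20, edgeR adjusted p 0.0427), beside 14.2% of all genes lower in that fit. ci, the transcription factor of Hedgehog signalling, was at 203 ± 23.0 CPM (SD, n = 4) against 154 ± 18.7 CPM (SD, n = 3), a rise of 0.40 ± 0.11 (SE; edgeR adjusted p 0.0477). per, a circadian clock gene, rose by 0.57 ± 0.16 (SE; edgeR adjusted p 0.0492), with 46.9 ± 5.51 CPM in Control KD (SD, n = 3) and 69.6 ± 15.1 CPM in Atx2 KD (SD, n = 4). Both lie at the threshold. ci lost its call without Atx2 KD replicate 1, 3 or 4 or control replicate 1 or 2, with adjusted p from 0.0812 to 0.164, and per without Atx2 KD replicate 1, 2 or 3 or control replicate 1 or 2, from 0.0530 to 0.165. In the early somatic marker list 2 of 7 were higher, 0 lower and 5 did not pass, beside the same share of 5.61% higher. Those that rose were eya, at 0.66 ± 0.13 (SE; edgeR adjusted p 0.0131), and Fas3, at 0.44 ± 0.12 (SE; adjusted p 0.0429), and with the replicate block ptc was higher as well (0.40, edgeR adjusted p 0.00970). Their part in the values of ci was not tested. With the eggshell and yolk covariate ci was at 0.28 (edgeR adjusted p 0.455) and per at 0.27 (0.607).

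Among 9 chromosome condensation partners, 1 was higher, 1 was lower and 7 did not pass, with a median of -0.01. Of all tested genes 5.61% were higher and 7.67% lower. aurB, the mitotic kinase of the chromosomal passenger complex, had 23.4 ± 1.19 CPM in Control KD (SD, n = 3) and 37.9 ± 2.398 CPM in Atx2 KD (SD, n = 4), a rise of 0.70 ± 0.08 (SE; edgeR adjusted p 0.00117). Its complex partners Incenp (-0.11, edgeR adjusted p 0.497), borr (-0.11, 0.303) and Det (0.29, 0.137) did not pass. CycB, a mitotic cyclin, fell by 0.64 ± 0.12 on the log2 scale (SE; edgeR adjusted p 0.0118), with 702 ± 110.5 CPM in Control KD (SD, n = 3) and 449 ± 47.9 CPM in Atx2 KD (SD, n = 4). The call of CycB was lost without control replicate 1 (-0.53, adjusted p 0.0586) or 2 (-0.63, 0.0570). It was also lost with the eggshell and yolk covariate, where the log2 fold change of -0.67 was as large and its SE rose to 0.21 (edgeR adjusted p 0.121). MRG15, whose product binds Cap-H2, was at 35.8 ± 0.494 CPM (SD, n = 4) against 36.0 ± 0.133 CPM (SD, n = 3). Top2, the topoisomerase of mitotic chromosomes, was at -0.12 ± 0.08 (SE; edgeR adjusted p 0.339).

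The other SMC and kleisin genes gave a similar picture, with 1 of 6 lower, 0 higher and 5 not past the threshold, and a median of 0.06. Of all tested genes 7.67% were lower and 5.61% higher. The cohesin ATPases SMC1 and SMC3 were at 0.15 and 0.07, the mitotic kleisin vtd at -0.11 and the SMC5 and SMC6 genes at 0.06 and 0.32 (edgeR adjusted p from 0.0562 to 0.755). With the replicate block SMC6 was higher (0.30, edgeR adjusted p 0.0176). The gene that fell was c(2)M, a kleisin-related gene of the synaptonemal complex, at 13.8 ± 2.36 CPM (SD, n = 4) against 28.3 ± 5.75 CPM (SD, n = 3), a log2 fold change of -1.03 ± 0.17 (SE; adjusted p 0.00606).

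**Figure D5:**
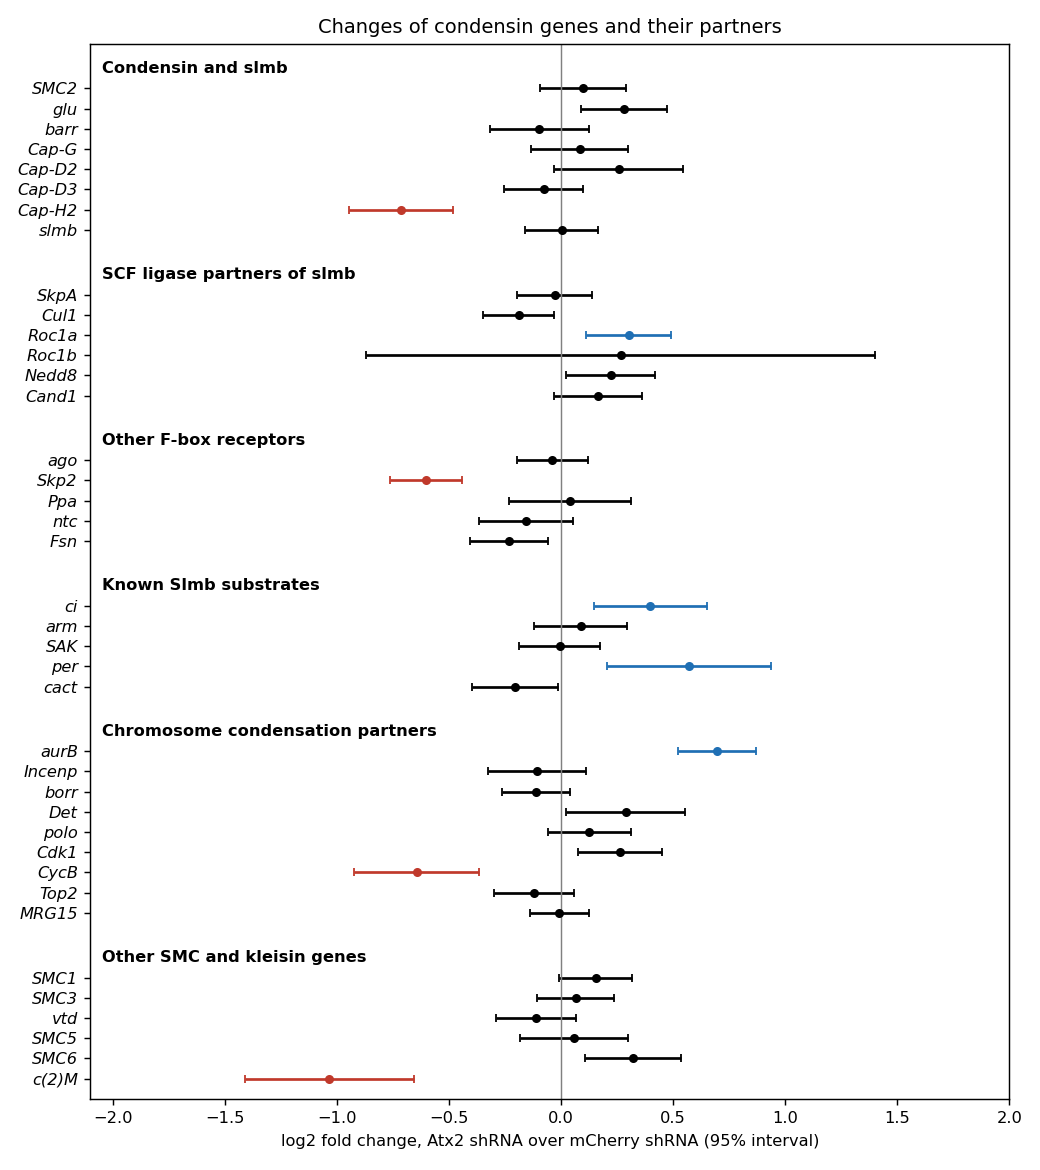
Log2 fold change (x axis, Atx2 shRNA over mCherry shRNA) with 95% intervals for the 8 genes and 5 partner lists. Red marks a fall and blue a rise at an edgeR adjusted p under 0.05, and black marks genes that did not pass; Cap-H2, Skp2, CycB and c(2)M are red.

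The germline markers did not move as one, and their values stand beside the fall of Cap-H2. Of the 7 analysed, bgcn was higher, otu and orb were lower and 4 did not pass, with a median log2 fold change of -0.21. The rise of bgcn, by 1.35 ± 0.25 on the log2 scale (SE; edgeR adjusted p 0.0103), was the largest change among the 7. Over all tested genes 5.61% were higher and 7.67% lower. With the replicate block 4 of the 7 were lower, as aub (-0.28, edgeR adjusted p 0.0150) and osk (-0.45, 0.0188) passed too. In that fit 14.2% of all genes were lower. vas, a broadly expressed germline gene, was at -0.11 ± 0.12 (SE; edgeR adjusted p 0.550), bam at 0.28 ± 0.10 (0.102), otu at -0.87 ± 0.12 (0.00331) and orb at -0.73 ± 0.13 (0.0103). The eggshell and yolk genes had 5 of 10 lower, 0 higher and 5 not past the threshold, with a median of -1.91, and 10 of 10 were lower with the replicate block. With their mean as a covariate the log2 fold change of Cap-H2 was -0.87 ± 0.17 (SE; edgeR adjusted p 0.0345). That mean was lower in every Atx2 KD library than in any control, so the fit cannot separate it from the group.

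Genes whose log2 CPM followed that of Cap-H2 most closely over the 7 libraries, among 7239 genes with a mean of at least 5 CPM, were PolH, TMEM216 and Reph, with Pearson r of 0.995, 0.994 and 0.991. They share the libraries and the group difference with Cap-H2, and their own log2 fold changes were -0.86, -0.51 and -0.66. PolH encodes a translesion DNA polymerase. For slmb the closest were beta'COP, Hrd3 and CG6766, with r of 0.984, 0.957 and 0.954 and log2 fold changes of -0.0038, 0.06 and 0.04. beta'COP encodes a subunit of the COPI vesicle coat and Hrd3 a factor of endoplasmic reticulum protein degradation. These likenesses are descriptions over 7 points.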

How the data were processed

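Per the submitters' processing notes, reads were handled with bcl2fastq 2.20, Trim Galore 0.6.7, cutadapt 2.10 and Salmon 1.9.0. The genome build, annotation release and library type setting are not given in the sources used here. The authors deposited estimated counts, described per the labels as not normalized, and TPM values, scaled by Salmon for transcript length, for each gene and transcript. Per the labels' protocols, ovaries were digested at 37 °C for 30 min and libraries were made from 18 ng of ribosomal RNA-depleted RNA without poly(A) selection.

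Estimated counts were rounded, filtered with filterByExpr (minimum count 10, minimum total 15), TMM-scaled and fitted in edgeR 4.0.16 (R 4.3.3), whose quasi-likelihood F-test compared the groups with no other covariate. Benjamini-Hochberg adjustment ran over all genes or all transcripts, at 0.05. SE is the log2 fold change over the square root of F, and intervals use its t quantile. Tests were two-sided. Transcript usage was tested with diffSpliceDGE. DESeq2 1.42.0, limma 3.58.1 on log2(TPM + 1) and log2(TPM + 0.1) of genes with mean TPM of at least 1, other scalings, a replicate block, an eggshell and yolk covariate and left-out libraries were alternatives. The covariate was lower in every Atx2 KD library than in any control, so its fit cannot separate it from the group. Scripts were tested on simulated data. Counts of 3 in a library correspond to 0.0295 to 0.0460 CPM, which covers counting error only.

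Deviations from the group means over genes were correlated between same-numbered libraries with r of 0.146, 0.336 and 0.519 for numbers 1, 2 and 3. Between differently numbered libraries r ranged from -0.383 to 0.157, so number 1 did not stand out. The numbers, taken from the titles, were treated as pairs in the block. Atx2 KD replicate 4 has no control of the same number, so the group difference in that fit rests on numbers 1, 2 and 3. No libraries of a group agreed within sampling noise (chi-square per degree of freedom at least 45.6). Positions and overlaps come from Ensembl release 115 of BDGP6.54, matched by FlyBase ID for all 13771 genes, and may differ from the authors' build. All 8 genes, Atx2, every transcript of the 8 and, in each partner list, up to 5 genes past the threshold were named by rule, with the 3 genes most like Cap-H2 and slmb. Other list members given with values were chosen after their values were seen. The genes and lists were chosen with earlier results of these data known. nos was not analysed here.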

Additional observations from a re-analysis of the deposited data

Results flagged for a closer look

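In the group of 4 Atx2 KD libraries, 35 sets of values were checked for a library far from the others. The check found 2, close to the share of about 1 in 20 that chance gives. For c(2)M, replicate 3 was at 10.3 CPM and the other 3 between 14.4 and 15.3 CPM. For barr transcript FBtr0081349, replicate 1 was at 11.9 TPM and the other 3 between 8.34 and 8.77 TPM, while the gene barr as a whole was not set apart. Groups of 3 are too small for this check, so the low value of Cap-H2 in control replicate 3, at 108 CPM beside 141 and 142 CPM, was not assessed. Without that library the log2 fold change of Cap-H2 was -0.84 (edgeR adjusted p 0.000858).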

How the results depend on the processing

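Cap-H2 kept its direction and its call in each of 16 alternatives, with log2 fold changes from -0.87 to -0.61 and adjusted p up to 0.0345. The reported fit called 1396 genes, 590 higher and 806 lower. That split was 811 to 600 with upper-quartile scaling, 683 to 415 with limma on log2(TPM + 1) and 283 to 233 with the covariate below. Counts moved by more than 1.5 times with DESeq2 (2151 genes), the replicate block (2941), libraries 1 and 2 only (627) and the eggshell and yolk covariate (516), and ranged from 467 to 1454 without single libraries (773 and 796 without Atx2 KD replicate 3 or 4, 467 and 469 without control replicate 1 or 2). Called among the 8 genes were 2 under upper-quartile scaling, DESeq2 and the replicate block, each time Cap-H2 and glu, and from 1 to 2 without single libraries (2 without Atx2 KD replicate 2). Values that changed sign, none past the threshold, were those of slmb with libraries 1 and 2 only (-0.0043), SMC2 (-0.025), Cap-G (-0.20) and Cap-D2 (-0.16) with the covariate, and transcript FBtr0082273 with the block (0.081). Without single libraries slmb ranged from -0.049 to 0.041, FBtr0081348 from -0.073 to 0.040, FBtr0343850 from -0.47 to 1.26, FBtr0301318 from -0.0061 to 0.60 and FBtr0082273 from -0.29 to 0.39. The reported fit called 1023 transcripts, DESeq2 called 3147, the replicate block 654 and fits without single libraries 159 to 814. Transcript usage calls, 202 as reported, were 100 with limma on shares, 241 with the replicate block and 132 to 210 without single libraries. The log2 ratio differences kept their direction without single libraries, from -0.67 to -0.50 for Cap-H2 to barr, -0.40 to -0.23 for Cap-D3 to Cap-D2 and 0.56 to 0.82 for slmb to Cap-H2, but none can pass there, since 6 libraries allow no smaller exact p than 0.0667, or 0.1 with 3 a group. The causes were not tested. At this depth, counting error is small beside the spread between libraries for the genes, and the uncertainty of dividing reads among transcripts was not measured.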
